A study of Mus musculus with 10 samples.

Results

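Chromatin of mouse cells given Gdf11 for 24 h was compared with that of the same differentiation culture without Gdf11, taken as the mean of day 6, when the ligand was added, and day 7, when the cells were harvested. The assay was ATAC-seq, whose transposase cuts and tags DNA that is not packed away, and each value is the count of sequenced tags over a region of open chromatin. The cells were ES-Bruce4, an embryonic stem cell line of the C57BL/6 strain, labelled wild type throughout, kept on mouse embryo fibroblasts and depleted of them before differentiation toward neuromesodermal progenitors. The groups compared had all received bFgf at 10 ng/ml from the start and CHIR99021, which activates the Wnt pathway, at 5 µM from day 2, and had been split on day 3. The treated group had human Gdf11 at 50 ng/ml from day 6 to day 7 (2 libraries), and the untreated groups were day 6 (2 libraries) and day 7 (2 libraries). Libraries of day 2 (2 libraries) and day 3 (2 libraries) entered the fit and were used as an outside reading. Each library came from 50000 cells, from 1 cell line, and the labels do not say whether libraries of a group were separate cultures, so p-values measure the spread between these libraries, which may be technical.

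A region is reported here when it passed edgeR's quasi-likelihood test (Benjamini-Hochberg adjusted p under 0.05, two-sided) and both Gdf11 libraries lay outside the range of all 4 untreated libraries. Of 246799 regions, 173175 had enough counts to be tested, and 6678 of those, 3.86%, were reported. The regions higher with Gdf11 numbered 3107, which is 1.79% of those tested, and the lower ones numbered 3571, or 2.06%. The range condition alone is loose, since both Gdf11 libraries lay outside the untreated range in 22.6% of all tested regions. The test alone called 6970 regions, 4.02%, among which 62 higher and 230 lower regions overlapped the untreated range and were not reported. The counts rest on both Gdf11 libraries. Without Gdf11 replicate 1, 978 higher and 943 lower regions were reported, and without Gdf11 replicate 2, 677 and 1618, where the lone library is assumed to vary like the other groups. The balance of the directions rests on the scaling, with 3921 higher and 2456 lower regions by library size alone and 1157 and 1860 by cyclic loess.

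Gdf11 is a secreted ligand of the TGF-beta family. It binds activin type II receptors and a type I receptor, which phosphorylate Smad2 and Smad3, and these enter the nucleus with Smad4. In the mouse embryo Gdf11 acts at the tail end of the body axis, where it times the passage from trunk to tail and the onset of the posterior Hox genes. Neuromesodermal progenitors are the caudal cells that supply both spinal cord and paraxial mesoderm, kept by Wnt and Fgf signals and by the Cdx factors.

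Reported regions touched few promoters, and the share of these promoters with an AP-1 site differed between the 2 directions. RefSeq promoters of build GRCm38.p6, each from 250 bases before to 50 bases after a gene's start, were matched to tested regions by overlap. Of 16523 promoters that overlapped a tested region, 69 overlapped a higher reported region and 251 a lower one. The AP-1 site TGANTCA, bound by Jun and Fos dimers, was found on either strand in 27.5% of the 69, in 2.79% of the 251 and in 5.05% of all 16523. The Sox core ACAAAG stood in 20.3% of the higher, 23.9% of the lower and 13.97% of all promoters, and the Sox core ACAATG in 15.9%, 11.2% and 7.55%. Both Sox cores were thus more frequent in either direction than in all promoters. The Smad core CAGAC stood in 68.1%, 45.8% and 47.8%. The Tcf/Lef site CTTTGAT stood in 2.90% of the higher, 3.59% of the lower and 2.66% of all promoters, and the posterior Hox site TTTATNG in 4.35%, 10.8% and 6.83%. Median GC content differed as well, at 50.0% in the 69, 58.7% in the 251 and 61.0% in all, and its part in these shares was not tested. A match is a run of letters and not a bound site.

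The promoters below were picked after their values were seen, to show what these motifs look like in sequence. The first pair overlaps higher regions, with TGANTCA in capitals. Each of this pair also holds 1 match to the Sox core ACAATG, left in lower case. Sprr1a encodes a small proline-rich protein of the cell envelope of squamous epithelia and Ctla2b a small inhibitor of cysteine proteases that has a close relative in the mouse genome, Ctla2a, with which it may share reads. The other promoters overlap lower regions, with both Sox cores and their reverse complements in capitals. By the shares above, Sox cores were not particular to the lower promoters. Dbx1 and Hoxb1 encode homeobox factors and Prtg a transmembrane protein of the early neural tube and mesoderm. Cdx2 encodes the caudal homeobox factor of the posterior axis, and its promoter, with neither core, is shown because its region had the smallest p of these.
Sprr1a, chr3:92485832-92486131, minus strand: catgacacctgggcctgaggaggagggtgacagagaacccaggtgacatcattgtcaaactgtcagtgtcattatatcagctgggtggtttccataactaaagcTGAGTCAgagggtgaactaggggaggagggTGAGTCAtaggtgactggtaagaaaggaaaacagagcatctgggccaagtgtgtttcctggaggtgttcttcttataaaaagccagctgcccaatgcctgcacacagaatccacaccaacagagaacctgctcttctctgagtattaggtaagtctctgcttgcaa
Ctla2b, chr13:60897398-60897697, minus strand: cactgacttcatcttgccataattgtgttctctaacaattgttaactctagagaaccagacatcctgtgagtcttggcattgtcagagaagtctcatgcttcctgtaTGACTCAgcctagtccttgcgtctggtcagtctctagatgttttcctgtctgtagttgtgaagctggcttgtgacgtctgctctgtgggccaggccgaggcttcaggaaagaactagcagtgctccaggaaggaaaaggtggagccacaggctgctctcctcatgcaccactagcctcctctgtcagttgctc
Dbx1, chr7:49636786-49637085, minus strand: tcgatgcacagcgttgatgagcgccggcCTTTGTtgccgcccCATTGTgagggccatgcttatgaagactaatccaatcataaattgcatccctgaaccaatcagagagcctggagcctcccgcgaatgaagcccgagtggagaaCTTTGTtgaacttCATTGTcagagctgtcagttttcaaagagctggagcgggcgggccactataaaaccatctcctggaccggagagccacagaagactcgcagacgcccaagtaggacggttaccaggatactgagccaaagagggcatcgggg
Prtg, chr9:72807024-72807323, plus strand: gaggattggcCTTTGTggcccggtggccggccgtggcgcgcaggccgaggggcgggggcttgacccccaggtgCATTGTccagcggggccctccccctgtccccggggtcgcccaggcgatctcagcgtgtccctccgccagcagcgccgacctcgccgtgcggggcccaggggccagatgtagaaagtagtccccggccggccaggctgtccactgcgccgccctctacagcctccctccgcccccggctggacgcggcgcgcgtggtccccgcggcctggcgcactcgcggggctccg
Hoxb1, chr11:96365508-96365807, plus strand: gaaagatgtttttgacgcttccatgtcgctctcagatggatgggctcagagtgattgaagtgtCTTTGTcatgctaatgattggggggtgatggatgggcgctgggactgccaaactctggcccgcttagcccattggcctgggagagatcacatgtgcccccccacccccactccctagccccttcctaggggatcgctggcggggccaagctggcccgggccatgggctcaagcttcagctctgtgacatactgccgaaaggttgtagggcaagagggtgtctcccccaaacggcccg
Cdx2, chr5:147307200-147307499, minus strand: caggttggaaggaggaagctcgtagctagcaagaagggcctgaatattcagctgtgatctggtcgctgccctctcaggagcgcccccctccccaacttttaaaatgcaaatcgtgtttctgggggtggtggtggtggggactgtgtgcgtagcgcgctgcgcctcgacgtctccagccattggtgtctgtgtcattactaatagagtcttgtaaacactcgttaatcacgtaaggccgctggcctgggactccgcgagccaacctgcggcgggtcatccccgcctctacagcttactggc

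Values are CPM, the usual count scaled to library size, with edgeR's TMM factors, given for day 6 replicates 1 and 2, day 7 replicates 1 and 2, then Gdf11 replicates 1 and 2. The region over the Sprr1a promoter had 0.719, 1.37, 1.35 and 0.589 CPM untreated and 4.30 and 3.34 CPM with Gdf11. The Ctla2b region had 0.639, 0.410, 0.720 and 0 CPM untreated and 2.62 and 4.09 CPM with Gdf11. Both promoters were close to closed in all 4 untreated libraries. That the ranges of the groups do not meet is required by the rule for reporting. The fitted changes were 1.92 ± 0.38 (log2, SE; adjusted p = 0.000742) for Sprr1a and 2.77 ± 0.57 (adjusted p = 0.00121) for Ctla2b. The Prtg promoter region had 38.8, 39.1, 42.0 and 47.0 CPM untreated and 16.4 and 24.8 CPM with Gdf11, a 2.03-fold lower level (adjusted p = 1.75e-05). The Dbx1 promoter region had 10.9, 5.20, 6.84 and 7.81 CPM untreated and 3.54 and 2.48 CPM with Gdf11, 2.54-fold lower (adjusted p = 0.00214). Both were open promoters, and the rule for reporting requires that the 2 Gdf11 libraries lie below every untreated one.

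The authors also deposited motif tables made from their own regions. In the authors' deposited table for day 7 with Gdf11 against day 7, the first 5 motifs of the regions that rose were Jun-AP1, Fosl2, Fra1, Fra2 and JunB, all of the AP-1 family. Jun-AP1 stood in 147 target sequences, or 28.11%, in the authors' deposited table. For the regions that fell, the first 5 in the authors' deposited table were Sox2, Sox3, Sox10, Sox15 and Sox6, with Sox2 in 1502 target sequences, or 51.76%. In the authors' deposited table for peaks joined between replicates, Atf7, Atf1, Smad2, Smad4 and Jun-AP1 led the rise, with Smad2 in 40 target sequences, or 81.63%. The motifs were ranked by the authors' enrichment p, and shares in their background sequences are not used here. The choice of target regions for these tables is not given in the sources used here, and they set Gdf11 against day 7 rather than against both days.

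Library totals over all regions were 10927890 and 9285217 counts with Gdf11 and between 7403576 and 12335735 untreated, and mitochondrial regions took 9.25% to 13.4% of counts over all 10 libraries. The share of a library's own peaks with more than 5-fold enrichment, as the authors' peak caller gave it, was 49.6% and 55.4% with Gdf11. It was 54.3% and 60.6% on day 6 and 59.2% and 71.1% on day 7. This measure of signal over background overlapped between Gdf11 and day 6, and both Gdf11 libraries lay below both of day 7. Gdf11 replicate 1 was the lowest of all 10 libraries. Spearman correlation across regions was 0.858 between the Gdf11 libraries, 0.850 between those of day 6 and 0.861 between those of day 7. For 9 markers of the labelled progenitors, the counts summed per gene ran from 15.2 CPM for Nkx1-2 to 266 CPM for Sox2 in the untreated libraries. The median tested gene had 27.8 CPM, so such sums do not by themselves show the identity of the cells. The gene T, or Brachyury, had between 26.4 and 41.4 CPM untreated and 25.6 and 29.1 CPM with Gdf11.

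At the median the higher regions were weak without Gdf11 and the lower ones open on both untreated days. These levels helped to choose the regions and are a description. The higher regions had a median of 1.14 CPM on day 6 and 1.19 CPM on day 7, against 4.14 CPM with Gdf11. In 1640 of the 3107, 52.8%, none of the 4 untreated libraries had a peak of its own, and in 431 all 4 had one, so part of the higher set was already open. The median higher region changed by 1.82 on the log2 scale. The lower regions had a median of 10.0 CPM on day 6, 11.1 CPM on day 7 and 4.79 CPM with Gdf11, and changed by a median of -1.14. Of the 3571, 3208 had their own peak in all 4 untreated libraries, which is 89.8%. A peak in both Gdf11 libraries and in no untreated one marked 1231 of the higher regions, and a peak in all 4 untreated and in neither Gdf11 library marked 562 of the lower ones. A peak was still called in both Gdf11 libraries at 61.4% of the lower regions.

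**Figure D1:**
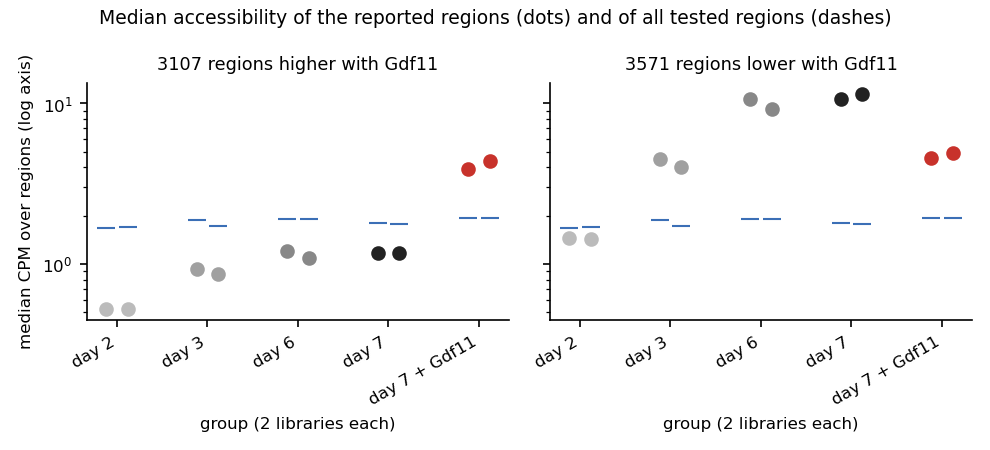
Median CPM (log axis) over the 3107 higher and 3571 lower reported regions in each of the 10 libraries (dots, 2 per group) and over all 173175 tested regions (blue dashes). The day 6, day 7 and Gdf11 values chose the regions and are a description. The day 2 and day 3 libraries were no part of the contrast, though they shared its fit, and their medians rise from 1.41 to 4.28 CPM in the lower set and from 0.575 to 0.926 CPM in the higher set.

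Both sets lay away from gene starts. Within 1 kb of an annotated start site stood 3.60% of the higher and 7.78% of the lower regions, against 14.2% of all tested. Beyond 50 kb of any protein-coding gene stood 34.3% of the higher and 29.96% of the lower regions, against 20.9% of all. Median widths were 281 and 455 bp, against 233 bp. The 2 sets also differed in how much signal they had, with a median of 2.20 CPM over the 6 libraries in the higher set and 8.64 CPM in the lower one.

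The change with Gdf11 depended on that level across all tested regions, not just the reported ones. Regions were ranked by mean CPM and cut into 10 equal bins. The median change was 0.33 (log2) in the lowest bin and dropped from bin to bin to -0.17 in the highest. Regions within 1 kb of a start site had a median of -0.10 and the rest 0.05. Scaling by library size alone raised the median of all regions from 0.02 to 0.13 and left a decline from 0.44 to -0.07, whereas cyclic loess, which takes out any trend with level, held all 10 bins between -0.01 and 0.05. For the summed counts of genes, described below, the median over 18988 tested genes was -0.07 under TMM, 0.03 by library size and near 0 after loess. Gene changes are to be read against that median, and counts under the other scalings are given beside the gene groups. The part of signal over background in this trend was not tested.

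**Figure D2:**
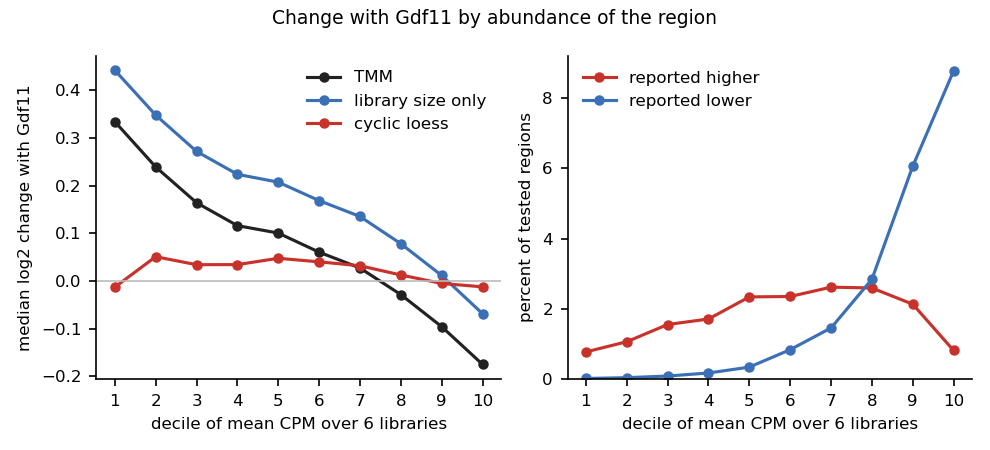
Left, median log2 change with Gdf11 in each of 10 bins (deciles) of the tested regions by mean CPM, under 3 scalings. Right, percent of each bin reported higher or lower under TMM: higher regions peak in the middle bins at 2.62%, and lower regions reach 8.77% in the highest bin.

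The day 2 and day 3 libraries were no part of the contrast, but they entered the filter, the scaling and the estimate of spread. With the other 6 libraries alone in the fit, 5018 higher and 4779 lower regions were reported. Of the regions lower with Gdf11, 1654 were higher on day 3 than on day 2 by the same kind of test, which is 46.3% against 8.82% of all tested regions. CHIR99021 was given from day 2 on, and its part in this overlap was not tested. Strong regions are called more often. Within the highest bin by mean CPM the shares were 53.4% of 1519 lower regions, 27.7% of 141 higher regions and 17.6% of all. Within the next bin they were 47.5% of 1049, 20.9% of 369 and 15.6%. In the lowest bin they were 1.49% of 134 higher regions and 3.90% of all, with only 3 lower regions. The part of level in the overlap was not tested further. Of the regions higher with Gdf11, 413 had risen from day 2 to day 3, or 13.3%, and 57 had fallen, or 1.83%, against 4.35% of all tested regions.

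The accessibility of genes was read as the summed counts of their regions, those within 50 kb for which the gene was nearest. It is not expression, and in bulk libraries fewer cells of a type and less open chromatin per cell cannot be told apart. Of 18988 genes, 296 rose (1.56%) and 1123 fell (5.91%). Rise and fall are against the mean of both days. Set against each day alone, 1.26% of genes were lower than day 6 and 11.3% lower than day 7. By library size alone 710 rose and 419 fell, and by loess 541 and 463, so the balance of directions among genes depends on the scaling. Without Gdf11 replicate 1, 119 rose and 146 fell, and without Gdf11 replicate 2, 121 and 888. The lists below hold 304 genes in 19 groups. Their counts are to be read beside the shares of 1.56% and 5.91%. Regions of high level were reported lower more often, 8.77% of the highest bin against 0.02% of the lowest. The list counts were not matched for level, and its part in them was not tested.

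Among the genes of the Gdf11 pathway itself, an antagonist rose and the ligand and a transducer fell. Fst encodes follistatin, which binds activins and Gdf11 outside the cell. Its gene summed to 61.1, 62.5, 67.7 and 77.5 CPM untreated and 73.7 and 98.4 CPM with Gdf11, so Gdf11 replicate 1 lay within the untreated range, and the change of 0.36 ± 0.10 (log2, SE) had an adjusted p of 0.0199. A single region inside Fst, chr13:114458360-114459416, was reported, with 25.5, 24.6, 26.3 and 27.0 CPM untreated and 32.9 and 43.5 CPM with Gdf11 (adjusted p = 0.0114). Smad3 fell by 0.42 (SE 0.09, adjusted p = 0.00198), a call lost with a gene window of 10 kb in place of 50 kb (adjusted p = 0.151), and the Gdf11 gene by 0.38 (SE 0.10, adjusted p = 0.0194). Smad3 had 114 and 98.2 CPM on day 6, 152 and 160 CPM on day 7 and 97.0 and 96.0 CPM with Gdf11. It differed by -0.15 from day 6 (adjusted p = 0.543) and by -0.69 from day 7 (adjusted p = 7.06e-06). At Gdf11 the libraries had 75.0, 76.6, 77.3 and 71.7 CPM untreated and 49.0 and 67.0 CPM with the ligand, both below all untreated ones. The call at the Gdf11 gene was lost without Gdf11 replicate 1 (adjusted p = 0.598), day 6 replicate 1 (0.0534), day 6 replicate 2 (0.0533) or day 7 replicate 1 (0.077), by loess (0.0534) and by library size (0.0546). The call at Fst was lost without Gdf11 replicate 2 (adjusted p = 0.491), day 6 replicate 1 (0.0718) or day 7 replicate 1 (0.099). The other 12 of 15 genes, with the receptors Acvr2a (-0.10), Acvr2b (-0.19), Acvr1b (-0.18) and Tgfbr1 (-0.11) and with Smad2 (-0.06) and Smad4 (-0.24), did not pass the test (log2 changes). The median of the list was -0.10, near that of all genes.

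Of 22 Smad target and feedback genes, 4 rose, Pmepa1, Ldlrad4 and Skil among them, and Cdkn1a fell, with a list median of 0.03. Over all genes 1.56% rose and 5.91% fell. By library size and by loess 5 rose and none fell, and without Gdf11 replicate 2 or day 6 replicate 1 there were 2 rises, Pmepa1 and Ldlrad4. Pmepa1 and Ldlrad4 encode related membrane proteins that hold back TGF-beta signalling by binding Smad2 and Smad3. Pmepa1 summed to 79.2, 80.4, 83.9 and 77.0 CPM untreated and 129 and 137 CPM with Gdf11, a change of 0.73 ± 0.08 (log2, SE; adjusted p = 5.13e-07). Ldlrad4 summed to 76.7, 74.8, 69.2 and 69.2 CPM untreated and 118 and 103 CPM with Gdf11, a change of 0.61 ± 0.08 (adjusted p = 8.46e-06). In both genes the untreated libraries were tightly grouped and the Gdf11 libraries stood well above them, also under each of the other scalings and without either Gdf11 library. Of the 21 tested regions at Pmepa1, 3 were reported higher and none lower. The strongest, chr2:173253754-173254606 inside the gene, went from 12.3, 13.7, 17.2 and 12.8 CPM to 38.4 and 46.2 CPM, 3.01-fold (adjusted p = 2.04e-08). The strongest of 3 at Ldlrad4, chr18:68117746-68118143, went from 3.68, 4.79, 3.87 and 2.65 CPM to 15.6 and 15.3 CPM, 4.13-fold (adjusted p = 4.27e-08).
Skil, the Smad repressor SnoN, had 75.0, 83.3, 80.0 and 85.0 CPM untreated and 87.2 and 117 CPM with Gdf11 (0.34 ± 0.11, adjusted p = 0.0472), and kept its call without Gdf11 replicate 1 but lost it without any 1 of the other 5 libraries, by DESeq2 and with the 10 kb window. Cdkn1a, which encodes the cell cycle inhibitor p21, fell by 0.28 (SE 0.08, adjusted p = 0.0388), a call that ended by loess (adjusted p = 0.223), by library size (0.235) and in most other alternatives. Cdkn1a differed by -0.10 from day 6 (adjusted p = 0.690) and by -0.45 from day 7 (adjusted p = 0.00182). Smad7, the inhibitory Smad, had 115, 123, 117 and 136 CPM untreated and 136 and 137 CPM with Gdf11 and did not pass the test under TMM (adjusted p = 0.251), though it did by library size and by loess.

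**Figure D3:**
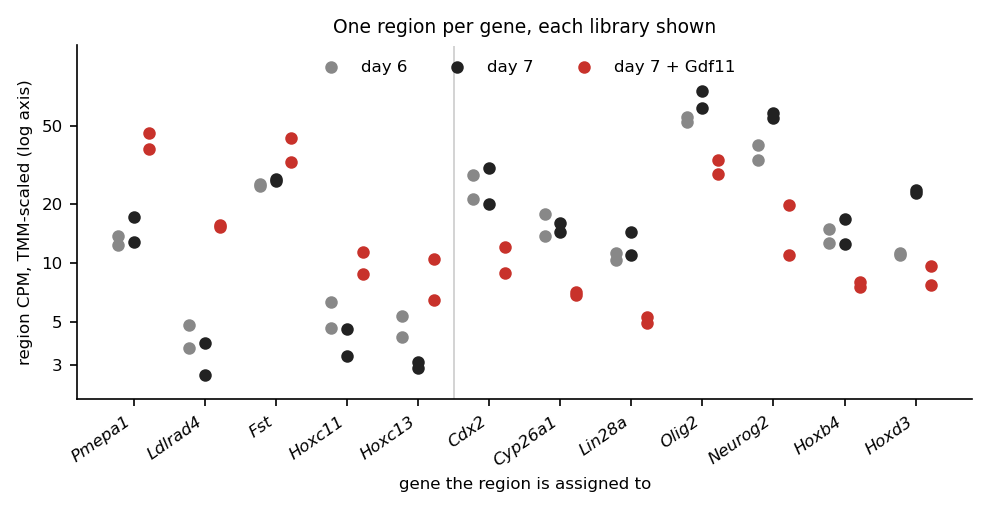
CPM (log axis) of 1 region for each of 12 named genes in every day 6, day 7 and Gdf11 library. Left of the line are reported regions that rose, such as Pmepa1 (12.3 to 17.2 CPM untreated, 38.4 and 46.2 CPM with Gdf11), and right of it reported regions that fell, such as Neurog2 (33.5 to 58.3 CPM untreated, 10.97 and 19.8 CPM with Gdf11).

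Of 17 genes of the caudal progenitor state, 8 fell and none rose, with a median of -0.32 (log2), where 5.91% of all genes fell. Cdx2 summed to 98.4, 94.3, 85.7 and 93.4 CPM untreated and 57.3 and 57.8 CPM with Gdf11, 1.61-fold lower (adjusted p = 4.52e-06). The region over its promoter, whose sequence is given above, went from 28.3, 21.3, 20.1 and 30.8 CPM to 11.99 and 8.83 CPM, and 4 of its 10 tested regions were reported lower. The Gdf11 libraries lay far below both days at this gene, and the call held without any 1 of the 6 libraries. Cdx1 (-0.69 ± 0.13, adjusted p = 0.000993) and Cdx4 (-0.45 ± 0.13, adjusted p = 0.0302) fell too (log2, SE), so all 3 Cdx genes passed the test.
Cyp26a1 encodes the enzyme that clears retinoic acid from the tail bud. It went from 41.9, 39.3, 30.5 and 33.0 CPM to 21.9 and 17.5 CPM, 1.81-fold lower (adjusted p = 6.10e-05). With the 10 kb window its change was -0.35 (log2) and the call was lost (adjusted p = 0.331). Sp8, a zinc finger factor downstream of Wnt and Fgf, fell by 0.49 (SE 0.08, adjusted p = 0.000104), Greb1 by 0.45 (SE 0.09, adjusted p = 0.000876), Sp5 by 0.42 (SE 0.09, adjusted p = 0.00223) and Sall4 by 0.41 (SE 0.08, adjusted p = 0.00198). Wnt3a, whose ligand keeps these progenitors, had 30.8 and 29.3 CPM on day 6, 45.3 and 47.4 CPM on day 7 and 45.7 and 43.2 CPM with Gdf11. At that gene the treated libraries resembled day 7, and the change from the mean of both days, 0.25 ± 0.11, did not pass the test (adjusted p = 0.147), though it did by library size and by loess. T (-0.32 ± 0.13, adjusted p = 0.125), Nkx1-2 (-0.22 ± 0.15, adjusted p = 0.389) and Fgf8 (-0.26 ± 0.14, adjusted p = 0.27) did not pass either. By loess 7 of the 8 still fell, all but Cdx4. Without Gdf11 replicate 1, 4 fell, and without Gdf11 replicate 2, 7 did.

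The Hox genes split along the cluster order. Hox genes are laid out in 4 clusters in the order in which they act from head to tail, group 1 toward the head and group 13 toward the tail. Of 12 genes of groups 1 to 4, 7 fell and none rose (median -0.42, log2). Of 13 tested of groups 5 to 9, 8 fell and none rose (median -0.39). Of 12 of groups 10 to 13, 2 rose and none fell (median 0.14). Over all genes 1.56% rose and 5.91% fell. Hoxa6 and Hoxb7 had no region assigned that could be tested.
In the first group Hoxc4 had 147, 145, 203 and 239 CPM untreated and 114 and 130 CPM with Gdf11, a fall of 0.56 (SE 0.09, adjusted p = 6.10e-05). Hoxd3 had 187, 175, 261 and 283 CPM and 142 and 178 CPM, a fall of 0.47 (SE 0.08, adjusted p = 0.000295), with Gdf11 replicate 2 inside the range of day 6. Hoxb4 had 58.3, 58.8, 59.7 and 86.2 CPM and 40.7 and 45.9 CPM, a fall of 0.59 (SE 0.12, adjusted p = 0.00119). The untreated libraries rose from day 6 to day 7 at Hoxc4 and Hoxd3, so that the Gdf11 libraries lay far from day 7 and close to day 6. Set against each day, with shared Gdf11 libraries, Hoxc4 differed by -0.26 from day 6 (adjusted p = 0.185) and -0.85 from day 7 (adjusted p = 1.39e-07). Hoxd3 differed by -0.18 (adjusted p = 0.375) and -0.77 (adjusted p = 4.94e-07). Of the 15 falling Hox genes, 0 were lower than day 6 alone by the test and 15 lower than day 7, where 1.26% and 11.3% of all genes were. The same libraries chose these 15, so their counts against each day are a description.

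**Figure D4:**
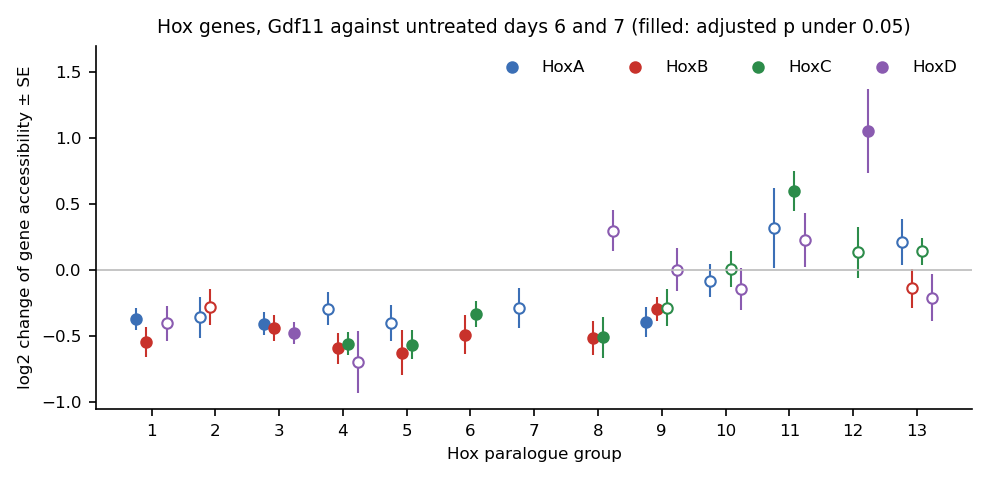
Fitted log2 change of summed accessibility with Gdf11 for 37 Hox genes, by paralogue group and cluster, with SE bars, and filled where the adjusted p was under 0.05. Groups 1 to 7 all lie below 0, and the 2 filled points above 0 are Hoxc11 (0.60) and Hoxd12 (1.05).

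At the tail end, Hoxc11 went from 14.4, 15.0, 11.7 and 13.4 CPM to 19.4 and 21.6 CPM (0.60 ± 0.15, adjusted p = 0.0103). Hoxd12 went from 2.96, 1.78, 4.41 and 1.62 CPM to 6.08 and 5.60 CPM (1.05 ± 0.32, adjusted p = 0.0352), at a low level. Both lay above all untreated libraries, but each call was lost when either Gdf11 library was left out, with adjusted p of 0.0569 and 0.0994 at Hoxc11 and 0.259 and 0.0857 at Hoxd12. Hoxc11 was also lost without day 7 replicate 1 (adjusted p = 0.0541), and Hoxd12 without day 6 replicate 2 (0.109) or day 7 replicate 2 (0.147). The group 13 genes Hoxa13 (0.21 ± 0.17, adjusted p = 0.496), Hoxb13 (-0.14 ± 0.15, adjusted p = 0.627), Hoxc13 (0.14 ± 0.11, adjusted p = 0.445) and Hoxd13 (-0.21 ± 0.18, adjusted p = 0.518) did not pass the test (log2, SE). Summed over the group 10 to 13 list, the Gdf11 libraries had 209 and 232 CPM and the untreated ones 202 to 221 CPM, which overlap.
Region by region, 16 of 232 tested regions inside the 4 clusters were reported. Over all tested regions 1.79% were reported higher and 2.06% lower, and the small counts per cluster were not tested against these shares. Regions assigned to genes of groups 1 to 4, inside or near the clusters, had 14 of 136 lower and 1 higher, at Hoxb1. In HoxC 2 of 62 rose and 1, at Hoxc8, fell. The first rise, chr15:102931618-102932110 beside Hoxc13, went from 4.15, 5.34, 2.88 and 3.09 CPM to 6.41 and 10.4 CPM (adjusted p = 0.00262). The second, chr15:102959645-102960087 beside Hoxc11, went from 6.31, 4.65, 3.33 and 4.57 CPM to 8.78 and 11.4 CPM (adjusted p = 0.00269). HoxB had 7 of 72 lower, at Hoxb1, Hoxb4, Hoxb5, Hoxb8 and Hoxb9, HoxD 4 of 49 lower, all assigned to Hoxd3, and HoxA 2 of 49 lower, both assigned to Hoxa3. Inside the clusters, the regions that fell lay in the part from group 1 to group 9, and the 2 that rose at groups 11 and 13. Without Gdf11 replicate 1 the falls came to 1 of 12 in groups 1 to 4 and 0 of 13 in groups 5 to 9, and without Gdf11 replicate 2 to 7 and 5. By loess they came to 7 and 3, by library size and by DESeq2 to 7 and 2, and with the 10 kb window to 7 and 5.

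Of 21 neural genes, 14 fell and none rose, with a median of -0.37 (log2), where 5.91% of all genes fell. Neurog2, a proneural factor that drives neurons to form, had 178, 156, 206 and 196 CPM untreated and 96.0 and 109 CPM with Gdf11, 1.79-fold lower (adjusted p = 8.79e-08). A region next to it, chr3:127628445-127629148, went from 40.1, 33.5, 55.1 and 58.3 CPM to 10.97 and 19.8 CPM, 3.00-fold lower (adjusted p = 1.47e-08). Neurog2 was lower than both days and passed the test under all alternatives run.
Olig2, the factor of motor neuron progenitors, went from 85.5, 90.3, 89.0 and 105 CPM to 59.2 and 63.6 CPM, 1.502-fold lower (adjusted p = 9.18e-05). With the 10 kb window the change at Olig2 was -0.02 (log2, adjusted p = 0.962), so the fall rests on regions farther out. Irx3, of the intermediate spinal cord, went from 90.7, 87.0, 113 and 110 CPM to 62.6 and 75.5 CPM, 1.45-fold lower (adjusted p = 0.000166). The region with the smallest p of all that fell, chr8:91875996-91876770, lay 74342 bp from Irx3, its nearest gene, and went from 58.4, 47.7, 70.4 and 85.0 CPM to 16.2 and 24.6 CPM, 3.16-fold lower (adjusted p = 5.02e-10). It is beyond 50 kb and so is not in the sum of Irx3. Dbx2 (-0.57 ± 0.10, adjusted p = 0.00038), Hes5 (-0.53 ± 0.10, adjusted p = 0.000655) and Pax7 (-0.48 ± 0.09, adjusted p = 0.000445) fell as well.
These genes did not share a pattern against the 2 days. Neurog2 differed by -0.70 from day 6 (adjusted p = 2.98e-05) and -0.97 from day 7 (adjusted p = 1.25e-08), and Olig2 by -0.52 (adjusted p = 0.00516) and -0.66 (adjusted p = 4.83e-05). Pax3, of the dorsal neural tube, had 204 and 182 CPM on day 6, 290 and 317 CPM on day 7 and 186 and 207 CPM with Gdf11, so that it differed by 0.02 from day 6 (adjusted p = 0.945) and by -0.63 from day 7 (adjusted p = 4.75e-06). Sox2, the neural and progenitor factor, had 155 and 163 CPM, 207 and 266 CPM, and 144 and 156 CPM. At Pax3 and Sox2 the treated libraries lay close to day 6 and below day 7. By library size 10 of the 21 fell, by loess 11, without Gdf11 replicate 1 only 4 (Neurog2, Pax7, Olig2 and Dbx2), and without Gdf11 replicate 2 there were 14. With the 10 kb window 7 fell, Neurog2, Dbx2, Pax7, Dbx1, Pax6, Hes5 and Pax3.

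Genes of the presomitic and paraxial mesoderm fell in smaller number, 8 of 20, with none higher and a median of -0.18 (log2). Over all genes 5.91% fell. Meox1, a homeobox factor of the somites, had 48.3, 44.2, 66.6 and 70.3 CPM untreated and 32.4 and 26.6 CPM with Gdf11, 1.90-fold lower (adjusted p = 1.47e-05). A region beside it, chr11:101896576-101897406, went from 21.4, 19.0, 33.8 and 35.1 CPM to 11.5 and 9.36 CPM (adjusted p = 1.16e-06). Hes7, of the segmentation clock, fell by 0.48 (SE 0.09, adjusted p = 0.00091), and Ripply1, which sets somite borders, by 0.67 (SE 0.16, adjusted p = 0.0077). Dll1, a Notch ligand, fell by 0.36 (SE 0.09, adjusted p = 0.00908) with Gdf11 replicate 2, at 117 CPM, inside the untreated range of 108 to 169 CPM, and lost its call without Gdf11 replicate 1 (adjusted p = 0.486). Dll1 differed by -0.08 from day 6 (adjusted p = 0.775) and by -0.64 from day 7 (adjusted p = 3.44e-05). Hes7 differed by -0.30 from day 6 (adjusted p = 0.136) and by -0.65 from day 7 (adjusted p = 4.10e-05). Msgn1, which promotes entry into mesoderm, changed by -0.16 ± 0.16 and did not pass the test (adjusted p = 0.602), and Tbx6 had under 1 CPM in all 6 libraries. By loess and by library size 4 of the 8 still fell, Meox1, Hes7, Ripply1 and Dll1, without Gdf11 replicate 1 there were 2 and without Gdf11 replicate 2 there were 5.

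In the Wnt list 7 of 19 genes fell (median -0.24), in the Fgf list 6 of 19 (median -0.19) and in the retinoic acid list 7 of 18 (median -0.23), with none higher in any. Over all genes 5.91% fell, and the part of level in these counts was not tested. Axin2, a feedback inhibitor and target of Wnt signalling, had 180, 185, 181 and 210 CPM untreated and 126 and 148 CPM with Gdf11, 1.38-fold lower (adjusted p = 0.000458). Its region chr11:108894043-108894459 went from 14.2, 10.9, 12.8 and 16.9 CPM to 4.56 and 4.52 CPM, 3.01-fold lower (adjusted p = 8.25e-06), one of the larger losses at a list gene.
The Fgf receptor gene Fgfr2 fell by 0.46 (SE 0.09, adjusted p = 0.000985), the Fgf-induced factor Etv4 by 0.42 (SE 0.09, adjusted p = 0.00457) and the feedback inhibitor Spry1 by 0.39 (SE 0.08, adjusted p = 0.00297), on the log2 scale. Crabp2, which carries retinoic acid into the nucleus, had 77.3 and 78.8 CPM on day 6, 118 and 145 CPM on day 7 and 59.7 and 64.6 CPM with Gdf11, 1.63-fold lower than both days together (adjusted p = 1.85e-05). It had risen from day 6 to day 7 without Gdf11, and lay below both with it. Meis2, a Hox cofactor that responds to retinoic acid, fell by 0.34 (SE 0.07, adjusted p = 0.00153), and 8 of its 65 regions were reported lower and none higher. Fgfr2 differed by -0.24 from day 6 (adjusted p = 0.255) and by -0.68 from day 7 (adjusted p = 1.36e-05). Meis2 differed by -0.21 from day 6 (adjusted p = 0.182) and by -0.48 from day 7 (adjusted p = 6.41e-05). The growth medium carried a B27 supplement with or without vitamin A, the precursor of retinoic acid, and the labels do not say which library had which.
These 3 lists lost calls under other scalings and libraries. By loess 2 of the 7 Wnt, 3 of the 6 Fgf and 3 of the 7 retinoic acid genes fell, and Wnt5b rose. In the BMP and Id list 2 of 16 fell, Id3 (-0.30 ± 0.09, adjusted p = 0.0245) and Gata3 (-0.28 ± 0.08, adjusted p = 0.0388), and neither did by loess (adjusted p = 0.141 and 0.223) or by library size (0.151 and 0.222). Id3 differed by -0.12 from day 6 (adjusted p = 0.653) and by -0.49 from day 7 (adjusted p = 0.000763). Gata3 differed by -0.18 from day 6 (adjusted p = 0.410) and by -0.37 from day 7 (adjusted p = 0.00874). With the 10 kb window the Fgf list had 2 falls, Fgfr2 and Spry1. Without Gdf11 replicate 1 the Wnt and Fgf lists had no fall left, the retinoic acid list had 1, and the BMP list none.

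Among the genes of the trunk to tail passage, 4 of 16 fell and none rose (median -0.13): Lin28a, Cyp26a1, Gdf11 and Lin28b. Lin28a encodes an RNA-binding protein that blocks let-7 maturation and is high in the early trunk. It had 75.0, 75.4, 76.7 and 88.5 CPM untreated and 44.2 and 51.0 CPM with Gdf11, 1.66-fold lower (adjusted p = 8.33e-06), and 4 of its 15 regions were reported lower. Its paralogue Lin28b fell by 0.29 (SE 0.09, adjusted p = 0.0357), a call that ended by loess (adjusted p = 0.179) and by library size (0.18). By either scaling 2 of the 16 fell, Lin28a and Cyp26a1, and with the 10 kb window 2, Lin28a and Gdf11. Isl1, a factor of the hindlimb and cloacal field, had 75.4, 76.9, 63.8 and 55.8 CPM untreated and 61.2 and 65.4 CPM with Gdf11 (-0.10 ± 0.09, adjusted p = 0.581). Nr6a1, a nuclear receptor of the trunk program, had 237 to 327 CPM and 256 and 260 CPM (-0.12 ± 0.07, adjusted p = 0.321). Both overlapped between the groups and did not pass the test.
In the pluripotency and epiblast list 3 of 20 fell, Lin28a, Sall4 and Utf1, and Prdm14 rose (0.40 ± 0.11, adjusted p = 0.0244), with a median of 0.07. Prdm14, a factor of naive pluripotency and germ cells, had 38.0, 33.1, 29.9 and 26.7 CPM untreated and 45.4 and 38.2 CPM with Gdf11, just above the highest untreated value in replicate 2. Its call was lost without Gdf11 replicate 1 (adjusted p = 0.399), day 6 replicate 2 (0.0929) or day 7 replicate 2 (0.109), and with the 10 kb window (0.165). Utf1 lost its call by library size (adjusted p = 0.225), by loess (0.163), by DESeq2 (0.0924) and without any 1 of the 6 libraries, so that its fall holds in few settings.

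Markers of other cells that the culture could hold are counted here beside all tested genes, of which 5.91% fell and 1.56% rose. These short lists were not tested against those shares. In the endoderm list 3 of 15 fell, among them Ttr (-0.76 ± 0.12 on the log2 scale, SE; adjusted p = 0.000105) and Cxcr4 (-0.37 ± 0.09, adjusted p = 0.0102). With the 10 kb window the fall of Ttr was gone (0.0025, adjusted p = 0.998), and Cxcr4 lost its call by loess (adjusted p = 0.0749). In the lateral plate, heart and blood list 1 of 13 fell, Kdr (-0.62 ± 0.12, adjusted p = 0.000743), which did not pass without Gdf11 replicate 1 (adjusted p = 0.0737). In the neural crest list 2 of 10 fell, Sox9 and Mitf, but by library size none fell and 2 rose, and by loess none fell and 1 rose. Their summed levels were 481 and 484 CPM with Gdf11 against 569 to 591 CPM untreated for endoderm, 502 and 549 CPM against 496 to 558 CPM for lateral plate, and 722 and 725 CPM against 705 to 864 CPM for neural crest.
The fibroblast list is of interest because the stem cells had been kept on such feeders. It summed to 525 and 592 CPM with Gdf11 and 501 to 588 CPM untreated, and 2 of 14 rose and 1 fell (median -0.02). Col3a1, a fibrillar collagen, had 31.8, 28.7, 32.0 and 31.5 CPM untreated and 44.5 and 50.5 CPM with Gdf11 (0.61 ± 0.12, adjusted p = 0.00119). S100a4 had 0.879 to 1.64 CPM and 3.04 and 7.32 CPM (adjusted p = 0.00353), but did not pass without Gdf11 replicate 2 (adjusted p = 0.188). Thy1 fell by 0.59 (SE 0.17, adjusted p = 0.0277), a call lost by library size (adjusted p = 0.073), by loess (0.0541), by DESeq2 (0.069), with the 10 kb window (0.473) and without Gdf11 replicate 1 (0.43). By library size 4 of the 14 rose and none fell, and by loess 3 rose. The part of such cells in the regions that rose was not tested. Of 18 housekeeping genes, 2 fell and none rose, and the median was -0.20. The caudal (-0.32), neural (-0.37) and anterior Hox (-0.42) medians lay below that of the housekeeping list, and the Wnt (-0.24), Fgf (-0.19), mesoderm (-0.18) and retinoic acid (-0.23) medians close to it. The lists were chosen with earlier results of these data known, so this order is a description.

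Outside the lists, the genes with the largest change were chosen among those above the median level whose groups did not overlap. Those that rose were Gm40514 (0.89 ± 0.11, adjusted p = 4.12e-06), Ccdc80 (0.78 ± 0.14, adjusted p = 0.000331), Slc22a3, Gas2, Spaca6 and Frk. Ccdc80 encodes a secreted matrix protein and Slc22a3 an organic cation transporter. Gas2, a protein that links actin and microtubules, had 32.0, 35.8, 30.6 and 34.2 CPM untreated and 52.1 and 57.6 CPM with Gdf11, 1.66-fold higher (adjusted p = 2.92e-05), with 4 of 17 regions reported higher. Those that fell were Proca1, Ash1l, Wfikkn1, Gpr12, Metrn and Ints7, between -0.81 and -0.99 (log2), of which Ints7 lost its call with the 10 kb window (adjusted p = 0.264).
Wfikkn1 encodes a secreted protease-inhibitor domain protein that binds myostatin and Gdf11 and blocks them. It had 44.6, 43.1, 57.9 and 76.7 CPM untreated and 26.8 and 32.3 CPM with Gdf11, 1.84-fold lower (adjusted p = 2.19e-05), on 2 tested regions of which 1 was reported lower. So 1 extracellular antagonist of the ligand, Fst, was higher and another, Wfikkn1, lower. Metrn, which encodes the secreted glial factor meteorin, lies on chromosome 17 as Wfikkn1 does and fell too (-0.85 ± 0.11, adjusted p = 3.33e-06).

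The genes with the most reported regions were picked for that count, and genes with many tested regions have more chances. Over all tested regions 1.79% were reported higher and 2.06% lower. Nfia, a nuclear factor I gene of glial and spinal cord development, held the most higher regions, 8 of 67 tested with 1 lower, though its sum did not pass the test (0.20 ± 0.07, adjusted p = 0.0752). Atp10a, a lipid flippase gene, held 6 of 21 with none lower, and its sum rose (0.55 ± 0.08, adjusted p = 2.77e-05). Lrmda, a gene of melanocyte differentiation, held the most lower regions, 11 of 65 with none higher, and fell (-0.52 ± 0.08, adjusted p = 5.04e-05). Rnf220, which encodes a ubiquitin ligase that stabilises beta-catenin, held 8 of 42 lower with none higher and fell (-0.60 ± 0.08, adjusted p = 3.72e-06). Tenm2 held 6 higher and 6 lower of 77, and the sum did not pass the test (-0.15 ± 0.07, adjusted p = 0.202).

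The region with the smallest p of all that rose, chr15:23452082-23452534, lies inside Cdh18, a cadherin gene. It went from 2.16, 1.92, 1.80 and 1.03 CPM to 15.0 and 20.7 CPM, 10.1-fold (adjusted p = 8.78e-13). Larger fitted changes were seen from lower levels, such as that at chr13:77003779-77004085 inside Mctp1, from 0.180 to 0.736 CPM untreated to 5.15 and 6.57 CPM (adjusted p = 1.36e-07). The largest loss among the regions named by rule was at chr2:114812889-114813136, 157843 bp from Dph6, from 1.80 to 4.23 CPM untreated to 0.253 and 0.108 CPM (adjusted p = 5.27e-05). At chr3:56493966-56494310, 310218 bp from Nbea, the fall was 10.5-fold, from 5.59 to 8.35 CPM to 0.844 and 0.431 CPM (adjusted p = 2.92e-07). In the group with less signal, each of these lay near or below 1.84 CPM, the median of tested regions. At the edge of the range condition, a region near Inmt was reported with 7.97 CPM in the lower Gdf11 library against 7.95 CPM in the highest untreated one. A region inside Nrcam was not reported, with both at 4.95 CPM to 3 digits.

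Reported regions, 3.86% of those tested, lay within 1 kb of 13 annotated miRNA hairpins, 5 beside higher and 8 beside lower regions. Hairpins near all tested regions were not counted, so these numbers are a description and do not show an excess. The mature sequences below are from RefSeq, with the seed, bases 2 to 8, in capitals. They are shown for the loci whose miRNAs are well known, and no miRNA level was measured. Each printed sequence has a seed of its own.
miR-199a-5p: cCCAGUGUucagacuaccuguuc
miR-199a-3p: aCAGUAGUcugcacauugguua
miR-130b-3p: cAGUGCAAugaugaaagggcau
miR-27b-3p: uUCACAGUggcuaaguucugc
miR-24-3p: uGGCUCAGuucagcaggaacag

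The region over Mir199a-2, a miRNA gene of mesenchymal cells, had 9.03, 6.84, 9.54 and 12.5 CPM untreated and 15.2 and 21.0 CPM with Gdf11, 1.92-fold higher (adjusted p = 0.00336). The region over Mir130b and Mir301b, a pair of the miR-130 family, went from 16.0, 16.6, 18.4 and 23.0 CPM to 9.96 and 8.18 CPM, 2.01-fold lower (adjusted p = 0.000573). The region 804 bp from Mir27b and 313 bp from Mir24-1, which share a cluster, went from 32.6, 31.2, 29.96 and 36.5 CPM to 17.0 and 20.1 CPM, 1.76-fold lower (adjusted p = 0.000754). In all 3 the Gdf11 libraries lay outside the untreated range, as the rule for reporting requires. The miRNAs miR-199a and miR-24 are also made from a second locus each, so these values bear on 1 source of each.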

How the data were processed

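ATAC-seq counts of 10 libraries were analysed. Reads, peaks and counts are the authors' work: build mm10 and the tools HISAT2 2.1.0, MACS2 2.1.1.20160309, HOMER 4.10, SAMtools and bedtools are named in the submitters' processing notes, without roles or order. The deposited count files hold raw tag counts per numbered region. The deposited peak lists give, per library, a fold enrichment (a ratio), a score and −log10 p and q values for each peak. The authors' deposited motif tables give, per the file headers, the count and percent of target sequences with each motif and a log p-value, taken here as a natural log score.

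The 10 peak lists were merged, with chromosomes in character order, into 246799 regions, matching the count rows. In this order 0 regions with a library's own peak had a count of 0 in that library. Counts were tested with edgeR 4.0.16 (R 4.3.3): filterByExpr, which removed 73624 regions, TMM factors, 1 model over 5 groups of 2 libraries, quasi-likelihood F test, Benjamini-Hochberg adjustment over all tested features. Regions were assigned to the nearest protein-coding gene of RefSeq GRCm38.p6 within 50 kb. CPM use TMM-scaled library sizes. With 7150334 to 12335735 counts a library, simulated 4-fold gains in this contrast were called in 49 of 50 regions, 2-fold gains in 17, 2-fold losses in 2 and 4-fold losses in 28, with 3 of 172975 unchanged regions called. The simulation drew the changed regions from those above the median level and gave every region the same dispersion. The lower reported regions had a median of 8.64 CPM, against 1.84 CPM for all tested, so these rates do not describe them.

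Regions and genes were named by rule: largest changes and smallest p among reported regions above median level, up to 4 genes per list by p, all Hox genes, and the 5 genes with the most reported regions per direction. Other list members, and the printed promoters and miRNAs, were chosen after their values were seen. Some list members are counted but not reported here by name. The members and lists were chosen with earlier results of these data known. Alternatives were library size, DESeq2 1.42.0 size factors and test, cyclic loess with limma 3.58.1, other filters, 6 libraries alone, no mitochondrial regions, a 10 kb gene window, a replicate block and leaving out each library.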

Additional observations from a re-analysis of the deposited data

How the results depend on the processing

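The counts of changed regions and genes moved with scaling, test and library. By library size alone 710 genes rose and 419 fell, with 19 and 45 list genes. By cyclic loess 1164 regions rose and 1879 fell (1157 and 1860 outside the range), 541 genes rose and 463 fell, and 16 and 46 list genes. By DESeq2 the region counts were 1129 and 1999 (1122 and 1945 outside the range), with 153 and 669 genes, 53 list genes lower, and 9022 and 4635 regions for day 3 against day 2. With 6 libraries alone in the fit 5238 regions rose (5018 outside the range) and 503 genes. With a 10 kb gene window 195 genes rose, and Ttr, a call in the main fit, was at 0.00249 (log2). The cause was not tested. Leaving out 1 library gave 679 to 2327 higher and 945 to 3063 lower regions (677 to 2243 and 943 to 3026 outside the range), 119 to 180 and 146 to 888 genes, 5 to 7 and 16 to 70 list genes, and, for day 3 against day 2, 13990 to 14909 and 7286 to 7996 regions. Without Gdf11 replicate 1, 30.1% of the higher and 24.5% of the lower reported regions were still reported, and without replicate 2, 20.7% and 39.6%. Over the alternatives 1323 of 1564 values of named genes kept direction and call, and 1441 of 1614 of named regions. These totals pool settings close to the main fit with harsher ones. They also count as kept the Hox genes that were not called in either fit, so they are no rate for called genes. By loess 78 of 98 named genes and 82 of 108 named regions were kept. DESeq2 gave no adjusted p for a few features, such as Hoxd12.

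Whether replicate numbers pair the libraries cannot be told from region values. Deviations of libraries with the same number correlated at -0.00074 to 0.0326 over single regions, where count noise can hide a shared effect. In each of the 5 groups replicate 1 had more counts and a lower mitochondrial share than replicate 2. With a replicate block 546 genes rose and 2196 fell, against 296 and 1123 without it. For regions the counts were 3363 and 4653, against 3169 and 3801. With 2 libraries a group, 2-fold losses were rarely called in simulation at regions drawn from all levels above the median. That rate does not describe the stronger regions reported lower here.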
